A study of Rattus norvegicus with 30 samples.

Results

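Il1b, Il6 and Ccl2, genes of 2 inflammatory cytokines and 1 chemokine, were followed in rat median nerve tissue that had grown inside a chitosan tube. They were taken by Ensembl ID, 3 of the 32545 genes in the deposited count table: ENSRNOG00000004649 (Il1b), ENSRNOG00000010278 (Il6) and ENSRNOG00000007159 (Ccl2). All 3 IDs were found, and all 3 passed the filter on low counts, as did 16015 genes (49.2%). The table itself carries no symbols, so these 3 names come with the definition of the set, and no other gene is named here.

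Interleukin-1 beta, the product of Il1b, is a cytokine made largely by macrophages and other myeloid cells as a precursor that caspase-1 cleaves before release. Interleukin-6 is a cytokine that acts through a receptor chain shared with leukemia inhibitory factor and ciliary neurotrophic factor. CCL2 is a chemokine that draws monocytes bearing the receptor CCR2 into tissue. In cut peripheral nerve, Schwann cells, fibroblasts and macrophages are known sources of such factors while myelin and axon debris are cleared and macrophages enter.

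The 30 samples came from adult female wild-type rats, and in the 25 repair samples a gap of 8 mm in the cut median nerve had been bridged by a 10 mm tube. The tube was placed 3 months after injury in delayed repair and at the time of injury in immediate repair, and tissue was taken 7, 14 or 21 days after repair. Delayed repair had 5, 4 and 3 samples at those days, immediate repair 4, 4 and 5, and control nerve, healthy and untreated, 5. The labels number the replicates without saying that each is a separate animal, so p-values measure the spread between these samples. Levels are given as CPM, read counts scaled to library size with TMM factors. Totals per library lay between 11958242 and 17334752 counts. In bulk tissue, fewer cells of a type and less RNA per cell cannot be told apart. Cell type markers could not be looked up without symbols, so the tissue label was not checked.

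The sequences before the annotated starts are shown because all 3 genes are textbook targets of inducible transcription factors. RefSeq's table of promoters in build GRCr8, 250 bases before to 50 after each start, held Il1b (chr3:137036532-137036831, minus strand) and Il6 (chr4:5894526-5894825, minus strand), 2 of the 3 genes. Ccl2 was not matched. The genome build behind the counts is not given in the sources used here. Capitals mark matches, on either strand, to 5 motifs whose letters follow the sequences.
Il1b: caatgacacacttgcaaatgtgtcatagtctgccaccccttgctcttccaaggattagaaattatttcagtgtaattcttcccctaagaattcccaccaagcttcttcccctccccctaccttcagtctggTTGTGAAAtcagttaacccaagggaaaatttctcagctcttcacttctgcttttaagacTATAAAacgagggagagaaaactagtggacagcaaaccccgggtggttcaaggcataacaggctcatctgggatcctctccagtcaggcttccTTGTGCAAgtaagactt
Il6: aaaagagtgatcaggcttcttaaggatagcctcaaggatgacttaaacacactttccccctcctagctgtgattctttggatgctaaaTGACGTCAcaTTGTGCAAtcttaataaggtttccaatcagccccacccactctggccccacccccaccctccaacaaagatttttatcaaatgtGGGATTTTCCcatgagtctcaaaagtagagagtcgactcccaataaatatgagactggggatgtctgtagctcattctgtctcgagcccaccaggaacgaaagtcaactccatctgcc
The Il1b window held TATA box letters at -60 to -55 and C/EBP letters at -119 to -112 and at 33 to 40. Positions are counted in bases from the start, which is 0. The Il6 window held NF-kB letters at -68 to -59, CRE letters at -162 to -155 and C/EBP letters at -152 to -145. No matches of different motifs overlapped, and neither window held AP-1 letters. The TATA box was searched as TATAAA, which 14.2% of the 33469 promoters of this length held. The cyclic AMP response element (CRE) was searched as TGACGTCA, held by 1.83%. The C/EBP motif was searched as TTNNGNAA, held by 41.3%, where N is any base. The AP-1 motif was searched as TGANTCA, held by 7.33%. The NF-kB motif, held by 1.30%, was searched as the run GGGATTTTCC of the Il6 window with any base allowed at the 2 letters after GGGA. The Il6 window therefore matched by construction, and the 1.30% does not measure how rare that match is. A match is a description of the letters, not evidence of binding.

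Against control nerve, Ccl2 and Il6 rose in both repairs on all 3 days, and Il1b rose at day 7 in both repairs and at day 21 after immediate repair. That is 15 rises in the 18 comparisons of the 3 genes with control in edgeR's quasi-likelihood fit, at an adjusted p under 0.05 over all tested genes (Benjamini-Hochberg). All 3 genes rose at day 7 after delayed repair, where 31.5% of tested genes were called higher, and at day 7 after immediate repair, where 30.2% were. Il6 and Ccl2 rose at day 14, where 26.2% of tested genes were called higher after delayed and 26.1% after immediate repair. At day 21 the share was 23.1% after delayed repair, with Il6 and Ccl2 called, and 24.8% after immediate repair, with all 3 called. The median log2 fold change of the 3 genes lay between 2.16 and 3.77 over these 6 comparisons, beside medians of all tested genes between -0.08 and 0.02. The same 5 control libraries serve all of them. Some calls after immediate repair ended when a single library was left out. They were Il1b at days 7 and 21, Il6 at day 7 and Ccl2 at day 21. Il1b at day 21 after delayed repair, not called in this fit, was called in 6 of 8 other settings. These settings all use the same delayed day 21 libraries, and some only leave out libraries outside the comparison, so they are not independent. Without delayed day 21 replicate 2 its log2 fold change was 1.64 instead of 2.95.

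**Figure D1:**
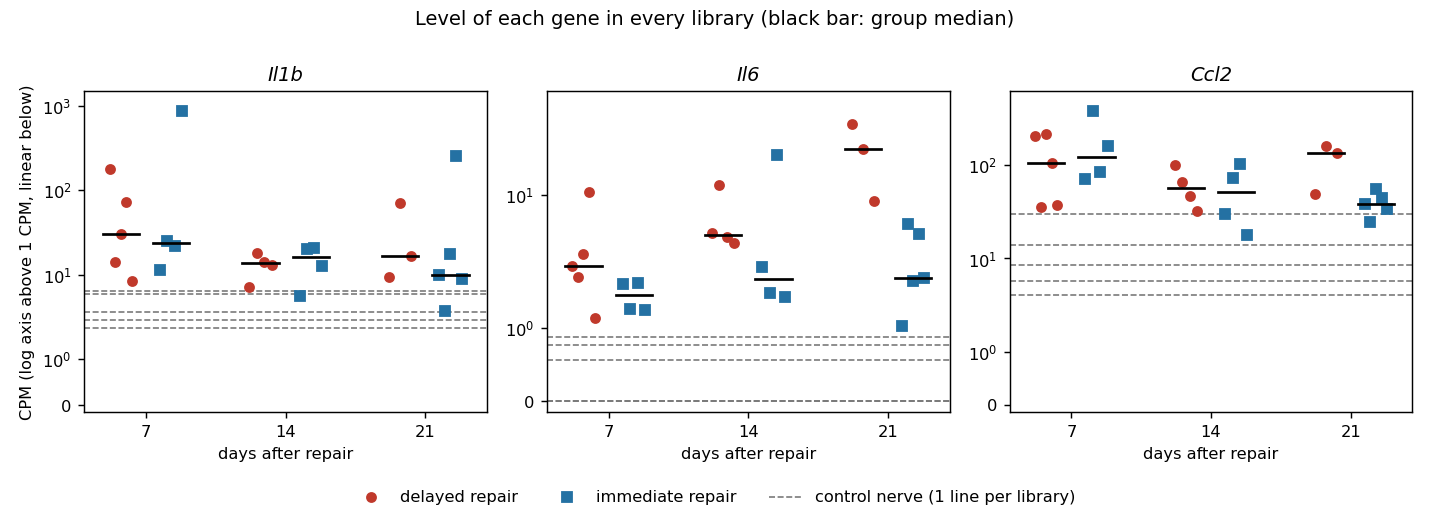
CPM of Il1b, Il6 and Ccl2 (vertical axis, logarithmic above 1 CPM) in each library of delayed and immediate repair by days after repair, with group medians as black bars and the control nerve libraries as dashed lines. Il1b reached 869.7 CPM in 1 immediate library at day 7, Il6 was highest in the 3 delayed libraries at day 21 as a group, and Ccl2 lay between 17.6 and 369 CPM in repair tissue.

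In 4 of the 6 repair groups a single library held more than all others of its group together for Il1b. At day 7 it measured 181, 13.9, 30.6, 73.0 and 8.32 CPM in delayed replicates 1 to 5, and 11.2, 24.8, 22.1 and 869.7 CPM in immediate replicates 1 to 4. Control nerve measured 2.29, 6.30, 3.59, 5.81 and 2.92 CPM. Every day 7 library lay above every control library, which 22.1% of tested genes showed after delayed and 24.3% after immediate repair, while the repairs overlapped.

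Immediate replicate 4 alone held 93.7% of the Il1b of its group, 35.1 times the next library. The log2 fold change against control at day 7 was 3.87 after delayed repair (SE 1.23, edgeR adjusted p = 0.00791) and 5.78 after immediate repair (SE 1.35, edgeR adjusted p = 0.000577). Without immediate replicate 4 the immediate change was 2.20 and was no longer called (edgeR adjusted p = 0.0675). With immediate day 21 replicate 4 left out as well it stayed at 2.20 and was called (edgeR adjusted p = 0.0133). That setting was added after seeing the data. It removes the libraries highest in Il1b, which enter the shared estimate of spread, so the regained call is no further support. Without delayed replicate 1 the delayed change was 2.90. The 3 other immediate libraries averaged 19.4 CPM, against 4.18 ± 1.78 CPM in control nerve (SD, n = 5).

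At day 14 Il1b measured 7.20, 18.1, 14.1 and 13.1 CPM after delayed repair and 5.63, 19.8, 20.7 and 12.7 CPM after immediate repair. All delayed libraries exceeded the highest control library, as 26.6% of tested genes did at that day, and immediate replicate 1 lay within the control range. The log2 fold changes of 1.64 (SE 1.19) and 1.81 (SE 1.19) were not called in the fit of all groups (edgeR adjusted p = 0.259 for delayed, 0.212 for immediate). Fitted with only the groups compared, both were called (edgeR adjusted p = 0.00123 and 0.00322).

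At day 21 the values were 9.46, 70.9 and 16.8 CPM after delayed repair and 9.89, 3.65, 17.4, 255 and 8.88 CPM after immediate repair. Immediate replicate 4 of that day held 86.5% of its group's Il1b, 14.7 times the next library. The other 4 averaged 9.95 CPM, and replicate 2 lay inside the control range. The immediate rise of 3.81 on the log2 scale (SE 1.22, edgeR adjusted p = 0.0123) became 1.24 without replicate 4 and was not called (edgeR adjusted p = 0.338). The delayed difference of 2.95 (SE 1.27, edgeR adjusted p = 0.0618) missed the threshold, although all 3 delayed libraries exceeded all control libraries, as they did for 26.3% of tested genes. The difference was 1.64 without delayed replicate 2. With all compared libraries kept, it passed without immediate day 7 replicate 4 (edgeR adjusted p = 0.0230) or immediate day 21 replicate 4 (0.0271), libraries outside that comparison which enter the shared estimate of spread.

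Immediate day 7 replicate 4 had the fewest counts of all libraries, 11958242, and the fewest genes with a count, 16100 against 16735 to 18613 in the others. In it 69 tested genes at 5 CPM or more exceeded every other library of the group at least 10-fold. The number was 301 in delayed day 7 replicate 5, whose Il1b, 8.32 CPM, was the lowest of its group. It was 37 in immediate day 21 replicate 4 and 0 to 39 in the 27 remaining libraries. The part of these differences in the Il1b values was not tested.

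Il6 was near the limit of counting in control nerve and highest at day 21 after delayed repair. Control libraries had 0, 9, 11, 11 and 0 Il6 counts, or up to 0.877 CPM, where 3 counts, the number a count of 0 allows, correspond to 0.187 to 0.243 CPM. At day 7 Il6 measured 2.91, 2.40, 3.56, 10.6 and 1.19 CPM after delayed repair and 2.12, 1.37, 2.17 and 1.35 CPM after immediate repair. Every repair library of all 3 days lay above all controls, which held for 24.6% of tested genes at day 14 and 20.4% at day 21 after immediate repair.

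The rise at day 7 was 3.20 on the log2 scale after delayed repair (SE 0.83, edgeR adjusted p = 0.00169) and 1.97 after immediate repair (SE 0.86, edgeR adjusted p = 0.0469). Leaving out delayed replicate 4, the highest, gave 2.48. The immediate call lay at the threshold: it was lost without any 1 of the 4 immediate day 7 libraries, without control replicate 1, 2 or 5, and without any of 8 libraries outside the comparison (delayed day 7 replicates 1 and 3, delayed day 14 replicates 1, 3 and 4, delayed day 21 replicate 2, immediate day 21 replicates 3 and 5). The adjusted p then lay between 0.0502 and 0.0967 (edgeR). Those 15 fits gave log2 fold changes of 1.65 to 2.08.

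At day 14 Il6 measured 5.15, 11.9, 4.78 and 4.35 CPM after delayed repair and 2.85, 1.82, 19.8 and 1.70 CPM after immediate repair. Immediate replicate 3 held 75.7% of its group's Il6, and the other 3 averaged 2.12 CPM. The rises against control were 3.86 after both delayed (SE 0.87, edgeR adjusted p = 0.000584) and immediate repair (SE 0.87, edgeR adjusted p = 0.000589). Without replicate 3 the immediate change was 2.24 and was still called.

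At day 21 Il6 measured 34.3, 22.2 and 8.97 CPM after delayed repair and 1.03, 6.04, 2.23, 5.06 and 2.36 CPM after immediate repair. The delayed libraries all lay above the immediate ones, as for 2.19% of tested genes, but that difference was not called (edgeR adjusted p = 0.435). Against control the log2 fold change was 5.60 after delayed repair (SE 0.93, edgeR adjusted p = 2.69e-05), a 48.4-fold rise, and 2.90 after immediate repair (SE 0.83, edgeR adjusted p = 0.00547), a 7.48-fold rise. Only 1.25% of tested genes had a log2 fold change as high or higher in the delayed comparison. Both folds divide by control levels that rest on 31 counts over 5 libraries.

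Ccl2 was above most control values in every group. At day 7 it measured 203, 35.1, 211, 104 and 36.9 CPM after delayed repair and 69.4, 369, 83.7 and 158 CPM after immediate repair, against 5.69, 29.7, 8.62, 13.8 and 4.05 CPM in control nerve. No day 7 library overlapped control, which held in this direction for 22.1% of tested genes after delayed and 24.3% after immediate repair. The log2 fold changes were 3.25 (SE 0.65, edgeR adjusted p = 0.000108) and 3.77 (SE 0.68, edgeR adjusted p = 2.95e-05), delayed before immediate.

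At day 14 Ccl2 measured 99.5, 65.8, 46.5 and 31.9 CPM after delayed repair and 29.5, 72.6, 102 and 17.6 CPM after immediate repair. The 2 lowest immediate libraries lay within the control range. Rises of 2.29 after delayed repair (SE 0.64, edgeR adjusted p = 0.00424) and 2.16 after immediate repair (SE 0.64, edgeR adjusted p = 0.00664) were called. With voom and sample quality weights the immediate change was 1.48 and was not called (limma adjusted p = 0.0585).

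At day 21 Ccl2 measured 48.7, 156 and 134 CPM after delayed repair and 38.4, 24.5, 54.8, 43.5 and 33.4 CPM after immediate repair. Immediate replicate 2, at 24.5 CPM, lay within the control range. The rises were 3.18 after delayed repair (SE 0.69, edgeR adjusted p = 0.00052) and 1.65 after immediate repair (SE 0.61, edgeR adjusted p = 0.029). The immediate call was lost without immediate replicate 3 or control replicate 1, 3 or 5, at log2 fold changes of 1.42 to 1.54. Control replicate 2 had the highest control value, 29.7 CPM, 2.15 times the next. Without it the 6 Ccl2 changes against control were 2.27 to 4.40, each still called and each more than 1.5 times larger as a fold. Without immediate replicate 2 the immediate day 7 change was 3.06.

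**Figure D2:**
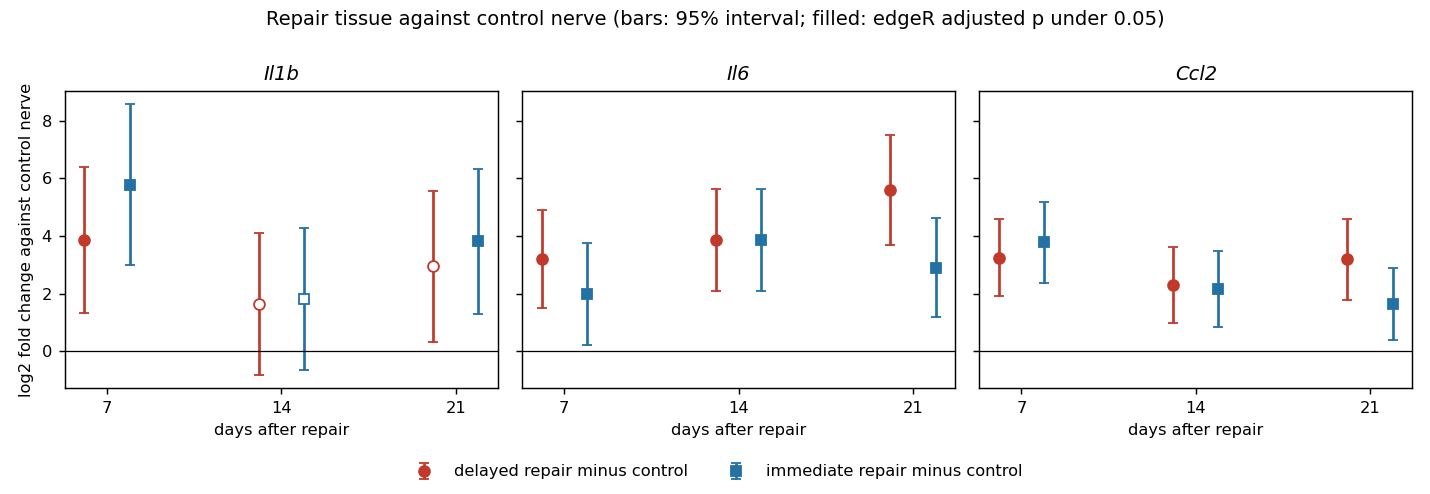
Log2 fold change of each gene against control nerve (vertical axis) at each day after delayed and immediate repair, with 95% intervals from the edgeR fit. Filled symbols passed an adjusted p of 0.05, and the 3 open ones are Il1b at day 14 in both repairs and at day 21 after delayed repair.

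Levels were next compared between days within each repair. Il6 was higher at day 21 than at day 7 after delayed repair, by 2.40 on the log2 scale (SE 0.81, edgeR adjusted p = 0.0315), where 15.1% of tested genes were called higher. The groups overlapped only in that day 7 replicate 4, at 10.6 CPM, exceeded day 21 replicate 3, at 8.97 CPM. Without that day 7 library the change was 3.11. The call was lost without day 21 replicate 1 (1.91) or 2 (2.39) or day 7 replicate 1 (2.30), 2 (2.25) or 3 (2.35), and when only these 2 groups were fitted (edgeR adjusted p = 0.0707). After immediate repair the day 21 minus day 7 difference of Il6 was 0.93 (95% interval -0.71 to 2.57, edgeR adjusted p = 0.359).

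Ccl2 fell after immediate repair. From day 7 it fell by 2.13 on the log2 scale at day 21 (SE 0.64, edgeR adjusted p = 0.0088), where 18.6% of tested genes were called lower, and the highest day 21 library, at 54.8 CPM, lay below the lowest day 7 library, at 69.4 CPM, a separation that 11.4% of tested genes showed. Without day 7 replicate 2 the difference was -1.42 and was not called (edgeR adjusted p = 0.0781). After delayed repair the difference was -0.06 (95% interval -1.47 to 1.34, edgeR adjusted p = 0.956). The difference between the repairs in this course is tested below by an interaction term.

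Il1b fell between days 7 and 14 after immediate repair, by 3.98 on the log2 scale (SE 1.35, edgeR adjusted p = 0.0258), where 14.3% of tested genes were called lower. The groups overlapped, and without day 7 replicate 4 the difference was -0.39 (edgeR adjusted p = 0.822). It was also not called without day 14 replicate 1 (-3.71) or 4 (-3.91). From day 7 to day 21 the direction turned with the library left out. The difference was -1.97 (edgeR adjusted p = 0.17) with all libraries, 1.61 without day 7 replicate 4 and -4.55 without day 21 replicate 4, the last of which was called (edgeR adjusted p = 0.00289).

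After delayed repair none of the 3 genes passed between days 14 and 7, where 34.7% of tested genes did. Their log2 differences, day 14 minus day 7, were -2.22 for Il1b, 0.66 for Il6 and -0.95 for Ccl2. Without day 7 replicate 4 the Il6 difference was 1.37, and without day 7 replicate 1 the Il1b difference was -1.26. After immediate repair Il6 at 1.89 (edgeR adjusted p = 0.0843) and Ccl2 at -1.62 (0.0661) missed the threshold over the same step, and DESeq2 called both (adjusted p = 0.0450 and 0.0323). Without immediate day 14 replicate 3 the Il6 difference was 0.27 (edgeR adjusted p = 0.826), and without immediate day 7 replicate 2 the Ccl2 difference was -0.91. Between days 21 and 14 no member passed in either repair. At that step 0% of tested genes were called after delayed repair and 0.256% after immediate repair. After delayed repair 620 genes (3.87%) had an unadjusted edgeR p under 0.05, fewer than that threshold passes without any difference.

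The design asks first how delayed repair differs from immediate repair of the same day. None of the 3 genes passed the edgeR test at any day. At day 7, where 0.712% of tested genes were called, the log2 fold change of Il1b was -1.92 (95% interval -4.28 to 0.45), that of Il6 1.23 (-0.42 to 2.88) and that of Ccl2 -0.53 (-1.81 to 0.75). The Il1b difference was 1.66 without immediate replicate 4, the Il6 difference 0.51 without delayed replicate 4, and the Ccl2 difference 0.19 without immediate replicate 2. The intervals reach past a 2-fold change in at least 1 direction for each gene, so differences of that size are not excluded.

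At day 14, where 0% of tested genes were called by edgeR (244 at an unadjusted p under 0.05, 7 by DESeq2 and 2 by voom with quality weights), the differences were -0.17 for Il1b (95% interval -2.68 to 2.35), -0.01 for Il6 (-1.65 to 1.64) and 0.14 for Ccl2 (-1.22 to 1.498). The groups overlapped for all 3 genes. Leaving out immediate replicate 3, which held most of its group's Il6, moved the Il6 difference to 1.62. Each sign turned with some libraries left out.

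At day 21 Il6 had the clearest separation. Its 3 delayed libraries measured 8.97 to 34.3 CPM and its 5 immediate libraries 1.03 to 6.04 CPM, with no overlap, which held in this direction for 2.19% of tested genes. The log2 fold change was 2.69 (SE 0.81, 95% interval 1.02 to 4.37), and 0.368% of tested genes ranked as high or higher. The unadjusted edgeR p was 0.0028, and the adjusted p over all tested genes was 0.435, in a comparison where 0.05% of tested genes were called. Over the settings tried, the adjusted p passed 0.05 with voom and sample quality weights alone (3.16, limma adjusted p = 0.0342). Leaving out any library of the comparison kept the change between 2.21 and 3.07.

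Ccl2 at day 21 was 1.54 higher on the log2 scale after delayed repair (SE 0.67, 95% interval 0.16 to 2.91), with an unadjusted edgeR p of 0.0297 and an adjusted p of 0.795. Delayed replicate 1, at 48.7 CPM, overlapped the highest immediate library, at 54.8 CPM. Il1b differed by -0.86 (95% interval -3.50 to 1.77) and by 1.71 without immediate replicate 4.

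**Figure D3:**
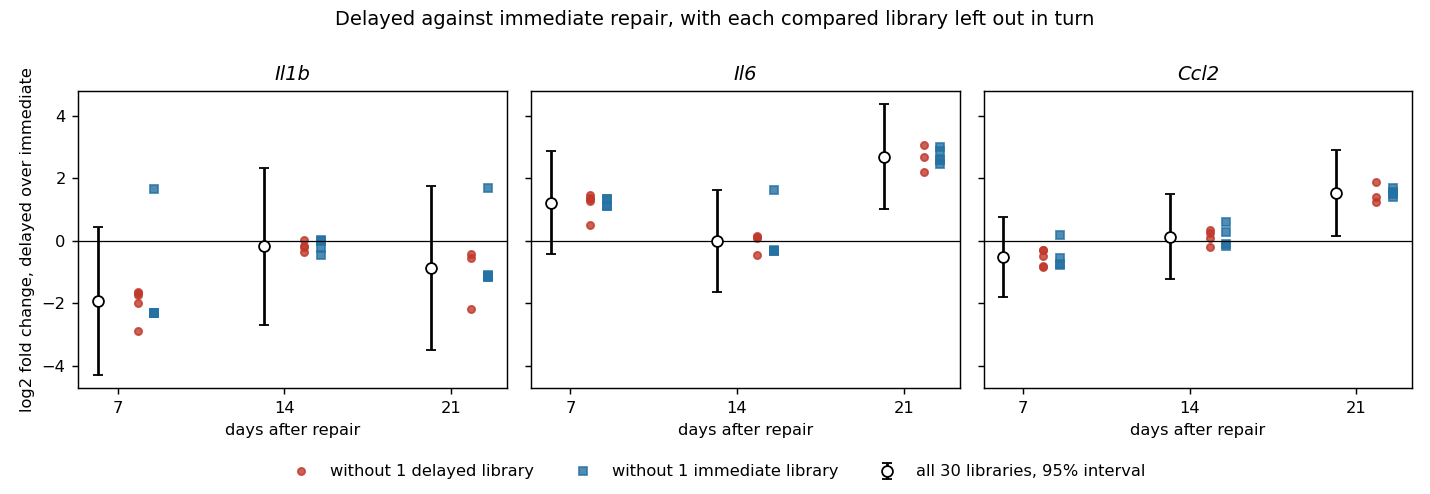
Log2 fold change of delayed over immediate repair (vertical axis) by days after repair, from all 30 libraries with its 95% interval (open black circles, none called) and with each compared library left out (red circles for a delayed library, blue squares for an immediate one). Il6 at day 21 stayed between 2.21 and 3.07, while the Il1b difference at days 7 and 21 turned from negative to 1.66 and 1.71 without 1 immediate library.

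The interaction of repair and day did not pass for any member. The F statistic was 2.80 for Il6 (unadjusted p = 0.0796, edgeR adjusted p = 0.939), 2.63 for Ccl2 (0.0921, adjusted 0.973) and 0.56 for Il1b (0.577, adjusted 1.00). Over all genes 0% were called by edgeR (951 of 16015 at an unadjusted p under 0.05), while DESeq2's likelihood ratio test called 115 and voom 0.

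Ordered by group median, the 3 genes gave different sequences. Il1b ran from 30.6 CPM in delayed and 23.4 CPM in immediate tissue at day 7 through 16.8 (delayed day 21), 16.3 (immediate day 14), 13.6 (delayed day 14) and 9.89 CPM (immediate day 21) to 3.59 CPM in control nerve. Neighbouring groups overlapped at each step. Il6 ran from 22.2 CPM in delayed day 21 tissue through 4.96 (delayed day 14), 2.91 (delayed day 7), 2.36 (immediate day 21), 2.33 (immediate day 14) and 1.75 CPM (immediate day 7) to 0.562 CPM in control nerve. The last step was the sole one without overlap between neighbours. Ccl2 ran from 134 CPM in delayed day 21 tissue through 121 (immediate day 7), 104 (delayed day 7), 56.2 (delayed day 14), 51.0 (immediate day 14) and 38.4 CPM (immediate day 21) to 8.62 CPM in control nerve, with overlap at each step.

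All 3 genes varied more between replicates than most genes. The SD of log2 CPM within repair groups was 1.86 for Il1b, 1.03 for Il6 and 0.97 for Ccl2, higher than in 98.6%, 85.3% and 83.3% of tested genes, whose median was 0.43. In control nerve the SD was 0.61, 1.46 and 1.11, in the same order of genes, beside a median of 0.22. The low counts of Il6 there add counting error to its spread.

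The deviations of the libraries were then compared between genes. After each library was set against the mean of its own group, Pearson's r over the 25 repair libraries was 0.449 between Il1b and Ccl2 (permutation p = 0.0405 within groups, adjusted p = 0.121 over 3 relations) and Spearman's rho was 0.532 (permutation p = 0.0183, adjusted p = 0.0550). Without the 2 libraries farthest in Il1b, replicate 4 of immediate day 7 and of immediate day 21, r was 0.580. Those 2 libraries stood near their group mean in Ccl2, at 158 CPM of a day 7 group of 69.4 to 369 CPM and at 43.5 CPM of a day 21 group of 24.5 to 54.8 CPM. Neither coefficient passed after adjustment. Il6 showed r of 0.184 with Il1b (rho 0.155) and 0.215 with Ccl2 (rho 0.217), with permutation p of 0.358 and 0.412 for r (adjusted p = 0.412 for both) and 0.489 and 0.353 for rho (adjusted p = 0.489 for both). Without the 2 libraries farthest in Il1b, r of Il6 with Il1b was 0.190, and without the 2 farthest in Il6, r of Il6 with Ccl2 was 0.0447.

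**Figure D4:**
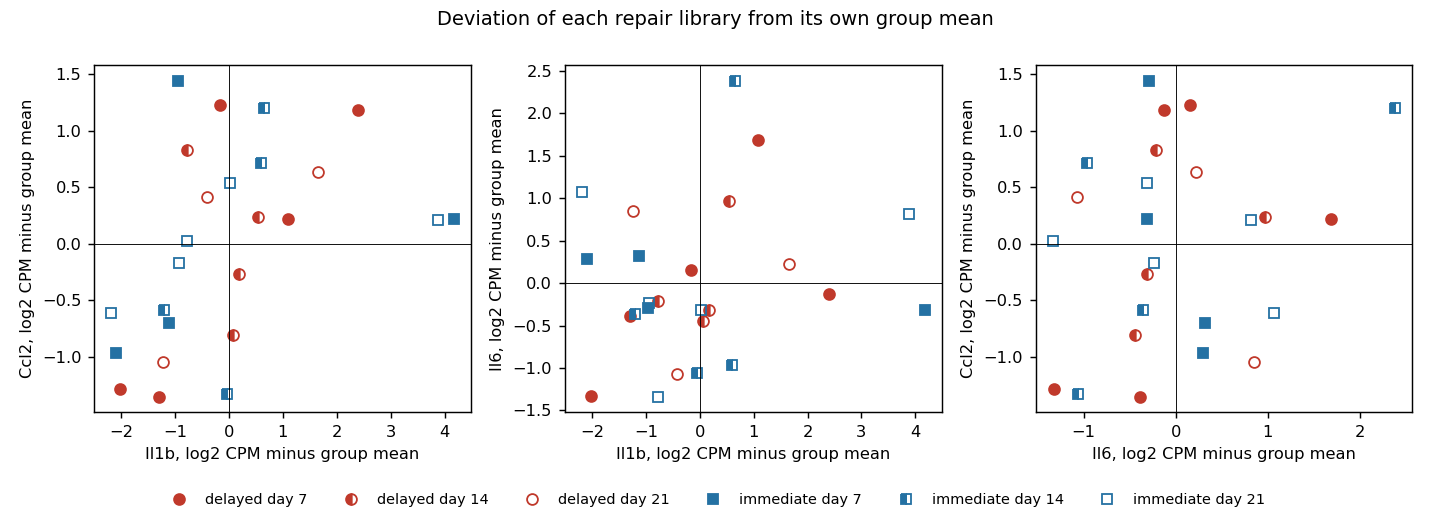
Deviation of log2 CPM from the mean of the own group for each of the 25 repair libraries, for the 3 pairs of genes, by repair and day. The Il1b and Ccl2 panel shows r of 0.449, which did not pass after adjustment (permutation adjusted p = 0.121). In it 2 immediate libraries lie far to the right in Il1b and near 0 in Ccl2. The panels with Il6 show r of 0.184 and 0.215.

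The genes most like the members over the 30 libraries were taken among the 12473 tested genes whose log2 CPM averaged 1 or more, by Pearson's r of log2 CPM, given as a description. Nearest to Ccl2 was ENSRNOG00000000239 (r = 0.964), and r was 0.935 after each library was set against its group mean. It measured 10.8 to 149.5 CPM after delayed and 66.5 to 193 CPM after immediate repair at day 7, against 3.24 to 28.5 CPM in control nerve, and shared with Ccl2 the highest control library, replicate 2. Nearest to Il1b was ENSRNOG00000036603 (r = 0.893, 0.840 without immediate day 7 replicate 4). It measured 679 CPM in that library and 87.9 CPM in immediate day 21 replicate 4, the 2 libraries highest in Il1b, then 58.2 and 26.3 CPM in delayed day 7 replicates 4 and 1. In the other 26 libraries it measured 1.31 to 8.95 CPM. For Il6 the highest r was 0.832. The table gives these IDs no symbol or function.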

How the data were processed

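Gene expression was measured by poly(A) RNA sequencing without strand marking, from 400 ng of RNA with an integrity number above 6, per the labels' protocols. Reads of overlapping or antisense genes therefore cannot be told apart. The authors deposited raw read counts per gene, unpooled, in 1 table. DESeq2 1.38.3, HISAT2 2.0.5 and featureCounts 1.5.0-p3 are named in the submitters' processing notes without their roles, and the genome build is not given in the sources used here. Columns were matched to samples by library name.

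The members and gene lists were chosen with earlier results of these data known. Pathway and cell type lists had been set by symbol and could not be applied, since the reference table pairs no Ensembl ID (0 matched). Named genes are the 3 members and, for the 2 members with the highest r, the gene nearest in pattern, by ID.

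Counts of all 30 libraries were fitted in 7 groups with edgeR 4.0.16 in R 4.3.3 (filterByExpr, TMM factors, robust quasi-likelihood test), with Benjamini-Hochberg adjustment over all 16015 genes and a threshold of 0.05. All groups share an estimate of spread. Standard errors and 95% intervals were taken from the test statistic. Log2 CPM used a prior count of 2. Replicates were compared first: chi-square divided by its degrees of freedom was at least 14.9 in 51 pairs, so none agreed within sampling noise. Correlations of members used 100000 permutations within groups. Floors of 3 counts cover counting error only, while the 95% intervals also include the spread between replicates.

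Alternatives were DESeq2 1.42.0, relative log expression (RLE) factors, no filter (24297 genes), the compared groups alone, a replicate block, limma 3.58.1 voom with sample quality weights, each compared library left out, and delayed day 7 replicate 5 and immediate day 21 replicate 4 left out together. Added after seeing the data were leaving out immediate day 7 and day 21 replicate 4 together, leaving out libraries outside a comparison, and Dixon's criterion on log2 CPM.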

Additional observations from a re-analysis of the deposited data

Results flagged for a closer look

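In 5 of the 18 sets of a gene and a group of 4 or 5 libraries, the highest library lay farther from the rest than Dixon's criterion allows, computed on CPM. Chance exceeds it in about 1 in 20 sets of normally distributed values. On log2 CPM 4 of these 5 were within the criterion, and 1, Il6 in delayed day 14, exceeded it. Il1b measured 869.7 CPM in immediate day 7 replicate 4 and 255 CPM in immediate day 21 replicate 4. Il6 measured 10.6 CPM in delayed day 7 replicate 4, 11.9 CPM in delayed day 14 replicate 2 and 19.8 CPM in immediate day 14 replicate 3. No Ccl2 library met the criterion, and delayed day 21, with 3 libraries, was not examined.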

How the results depend on the processing

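Of the 48 results (3 genes in 15 comparisons and the interaction), 48 kept direction and call with RLE factors, 47 without the filter, 45 with DESeq2, 43 with the compared groups alone and 36 with voom. Mean CPM per group moved by less than 1 SD of the group's libraries under RLE and DESeq2 size factors. This is a weak check, since that SD was 183% and 186% of the Il1b mean at immediate days 7 and 21. All values below are log2 fold changes. Without the filter Il6 at immediate day 7 against control gave 2.04 (not called). With the compared groups alone Il1b against control was called at delayed day 14 (1.68), delayed day 21 (2.97) and immediate day 14 (1.86), while Il6 at delayed day 21 against day 7 (2.42) and Il1b at immediate day 14 against day 7 (-4.05) were not. DESeq2 called Il1b at delayed day 21 against control (2.96) and, for immediate day 14 against day 7, Il6 (1.90) and Ccl2 (-1.64).

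With voom, delayed against immediate gave 0.41 (day 7) and 0.83 (day 21) for Il1b, 0.87 for Il6 at day 14, and a call for Il6 at day 21 (3.16). It called Il1b at delayed day 21 against control (2.29), Il6 at delayed day 21 against day 14 (2.11) and Ccl2 at immediate day 14 against day 7 (-2.53). It did not call Ccl2 at immediate day 14 (1.48) or Il1b at immediate day 21 (1.46) against control, or Il1b at immediate day 14 against day 7 (-1.01). Immediate day 21 against day 14 turned to -0.11 for Il1b and 0.25 for Ccl2. The lowest weight, 0.233, was that of immediate day 7 replicate 4, the library highest in Il1b.

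The replicate block turned delayed against immediate to 0.13 (day 7) and 0.58 (day 21) for Il1b and 0.19 for Il6 at day 14. Against control it called Il1b at delayed day 21 (2.98) and did not call Il6 at immediate day 7 (1.99) or Il1b at immediate day 21 (2.40), nor Il1b at immediate day 14 against day 7 (-2.13). It changed no other call of these genes. The numbers share no stated origin: same-numbered samples correlated at -0.66 to 0.41 in their deviations (median 0.002), and in 0 of 15 comparisons were all pairs above 0.1.

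With replicate 5 of delayed day 7 and replicate 4 of immediate day 21 both left out, Il1b gave 1.71 (delayed against immediate, day 21), 2.95 (delayed day 21 against control, called), 1.24 (immediate day 21 against control, not called), -0.57 (immediate day 21 against day 14) and -4.55 (immediate day 21 against day 7, called). Without replicate 4 of immediate day 7 and day 21, Il1b gave 1.66 and 1.71 (delayed against immediate, days 7 and 21), 2.95 (delayed day 21, called), 1.81 (immediate day 14, called) and 1.24 (immediate day 21, not called) against control, -2.23 (delayed day 14 against day 7, called), -0.39 (immediate day 14 against day 7, not called) and -0.57 (immediate day 21 against day 14). Il6 at immediate day 7 (2.08) and Ccl2 at immediate day 21 (1.60) against control were then not called, while Il1b at immediate day 7 (2.20) was. These libraries were chosen after seeing the data and are the highest in Il1b, so Il1b calls in this setting are no further support.

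Leaving out single libraries changed a call in 10 of 48 results and ended it in 7 of the 18 called, and none of the 18 turned direction. Over the compared libraries, delayed against immediate ranged from -2.88 to 1.66 (day 7), -0.45 to 0.042 (day 14) and -2.17 to 1.71 (day 21) for Il1b, from 0.51 to 1.47 (day 7) and -0.46 to 1.62 (day 14) for Il6, and from -0.84 to 0.19 (day 7) and -0.20 to 0.61 (day 14) for Ccl2. Against control it ranged from 1.64 to 3.38 (delayed day 21), 2.20 to 6.18 (immediate day 7) and 1.24 to 4.11 (immediate day 21) for Il1b, 1.65 to 2.34 for Il6 at immediate day 7 and 1.42 to 2.27 for Ccl2 at immediate day 21. Day 21 against day 7 ranged from -2.22 to 0.044 (Il1b), 1.91 to 3.11 (Il6) and -0.37 to 0.30 (Ccl2) after delayed repair, and from -4.55 to 1.61 (Il1b) and -2.39 to -1.42 (Ccl2) after immediate repair. Day 14 against day 7 ranged from -2.51 to -1.26 for Il1b and 0.20 to 1.37 for Il6 after delayed repair. After immediate repair it ranged from -4.37 to -0.39 (Il1b), 0.27 to 2.21 (Il6) and -2.09 to -0.91 (Ccl2), and day 21 against day 14 from -0.57 to 2.30 (Il1b) and -1.29 to 0.66 (Il6). Causes of these changes were not tested. Depth limits Il6 in control nerve, at 0 to 11 counts a library.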
